A study of Drosophila melanogaster with 12 samples.

Results

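Adult fruit flies (Drosophila melanogaster) in which selenophosphate synthetase 2 was knocked down were compared with larvae in which the same gene was knocked down. The 6 arrays whose titles name the knockdown, 3 of adults and 3 of larvae, were taken out of the 12 arrays of the series. The other 6 arrays were of wild-type adults and wild-type larvae, 3 at each stage, and are used here only to show where the stage difference of the knockdown departs from that of wild type. Transcripts were measured on an Affymetrix Drosophila genome array, on which a gene is read by 1 or more probe sets. The titles number the arrays of a group as biological replicates, and all animals were kept on cornmeal and yeast food. No source used here gives the way the knockdown was made, its driver, the wild-type line, or the sex, age and body part of the animals sampled.

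Between larva and adult a fly is rebuilt. Most larval organs are broken down under pulses of the steroid hormone ecdysone, imaginal discs form the adult body wall, eyes, legs and wings, the larval muscles are replaced, and the gonads mature. Sps2 encodes an enzyme that prepares the activated selenium used to build selenocysteine, and its product is itself a selenoprotein, as are those of BthD and SelG in this species. In RNA from tissues of many cell types, fewer cells of a type and less of a transcript in each cell cannot be told apart, which holds for every gene group below.

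Of 18769 probe sets that are not controls, 12827 were bright enough to test, and these stand for 10426 genes, with the probe set of highest mean level taken for each gene. Values are log2 signals, and changes are knockdown adults minus knockdown larvae on that scale. Calls rest on a linear model over all 12 arrays (limma) with a Benjamini-Hochberg adjusted p under 0.05. Arrays of knockdown adults ranked probe sets almost identically (Spearman's rho across probe sets 0.993), as did those of knockdown larvae (0.982 to 0.984), and between the stages rho was 0.646 to 0.662. Array medians were 6.37 to 6.48 in knockdown adults and 6.03 to 6.16 in knockdown larvae. The 3′ probe sets of the actin, Gapdh and eIF4a controls read above the 5′ ones by 2.44 ± 0.07 on average in knockdown adults and by 3.70 ± 0.06 in knockdown larvae (log2, SD, n = 3), a sign of RNA or labelling quality that moves with stage at either genotype, and its part in the results was not tested.

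The stage difference reached most of the transcriptome. A total of 8705 of 10426 genes were called (83.5%), 5552 of them higher in adults (53.3%) and 3153 lower (30.2%), and the median change over all genes tested was 0.55. A change of at least 2-fold was called upward for 3963 genes (38%) and downward for 2017 (19.3%). A change of at least 8-fold was called upward for 769 genes (7.38%) and downward for 566 (5.43%). Adult and larval arrays did not overlap for 86% of genes. Over probe sets, 10422 of 12827 were called (81.3%), 6458 higher (50.3%) and 3964 lower (30.9%), and the stages did not overlap for 84.3%. The median over probe sets was 0.43, and other scalings moved it to 0.13 (quantile normalization) or 0.09 (median centring). With so large a background, the count for a gene group says little unless nearly all its members move one way or the size of the change is large. A gene read at one stage only enters the test through that stage, so the counts below describe the members that were bright enough and not whole gene families. The change of the 41 gene lists with at least 3 tested members is plotted by list.

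**Figure D1:**
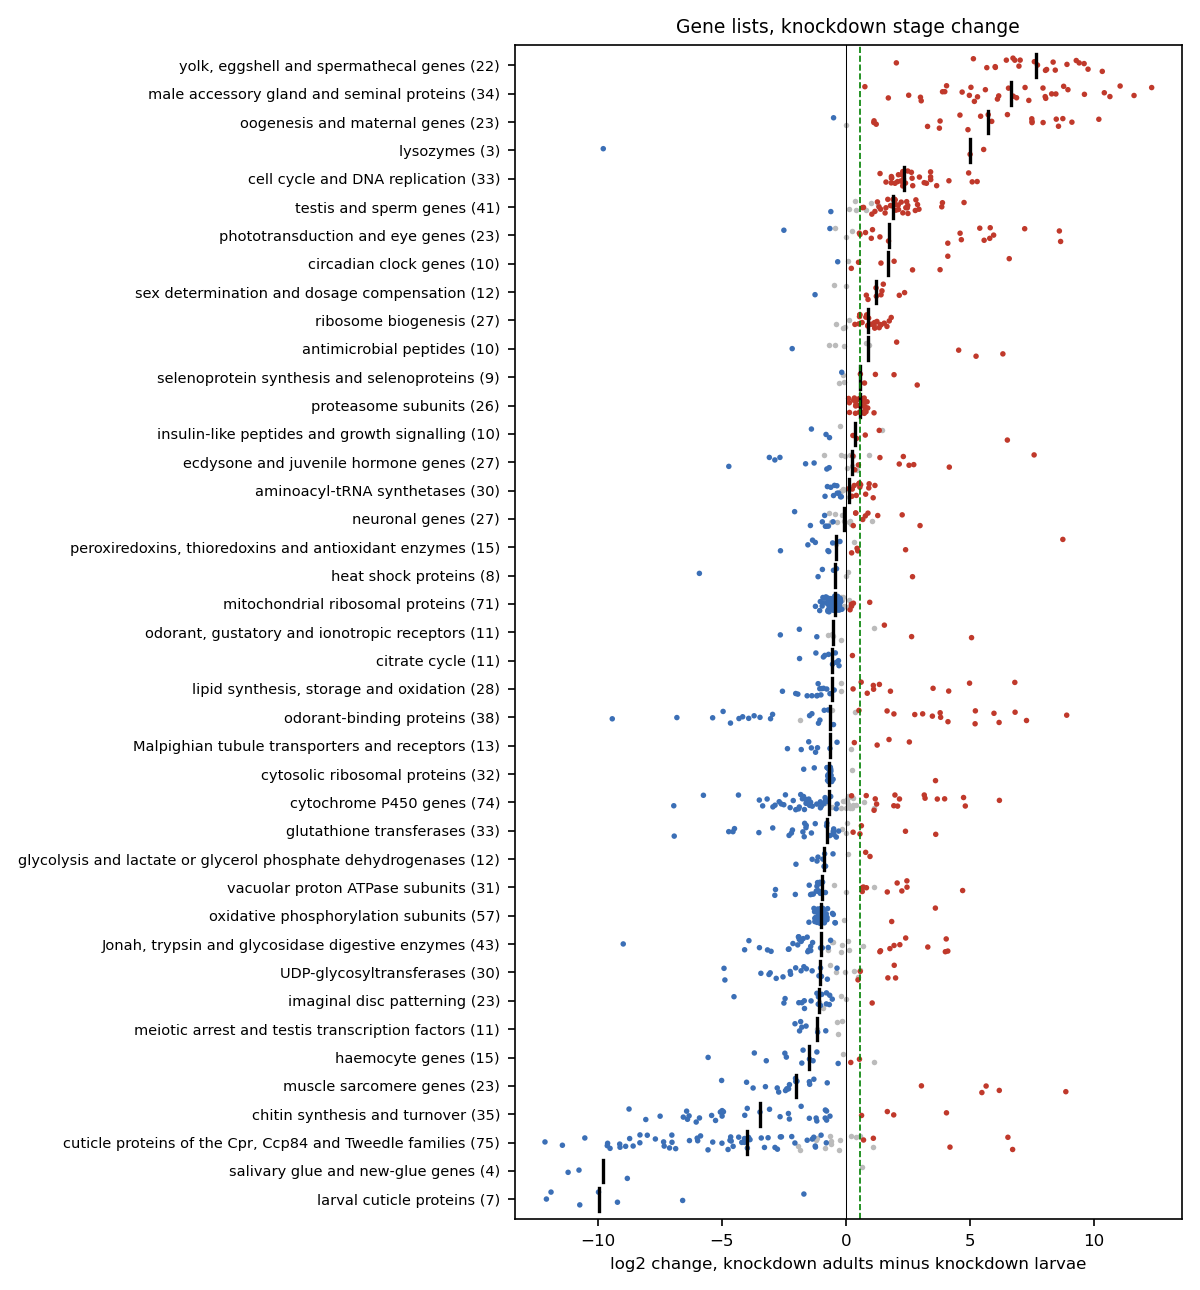
Change between knockdown larvae and knockdown adults for each tested gene (points; horizontal axis, log2 adult minus larva) in 41 gene lists, with the number of tested genes in brackets; red points were called higher in adults, blue points called lower and grey points not called. Black bars are list medians and the dashed line is the median of all genes tested (0.55). Larval cuticle proteins, with a median of -9.98, lie at the bottom, and yolk, eggshell and spermathecal genes, with a median of 7.65, lie at the top.

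Sps2 itself was low at both stages of the knockdown. It read 7.10, 7.11 and 6.82 on the adult arrays and 7.56, 7.11 and 7.21 on the larval arrays, so that the stages touched at 7.11. The change of -0.28 (SE 0.12) was just outside the threshold (limma adjusted p = 0.0509). It was inside it without adult knockdown replicate 1 (adjusted p = 0.0488), adult knockdown replicate 2 (0.0479) or larval knockdown replicate 2 (0.0181), with changes of -0.33 to -0.37. Without larval knockdown replicate 1, the highest larval reading, the change shrank to -0.15. With 1 array left out the limma adjusted p reached up to 0.223, so the call turned on single arrays in both directions. Wild-type arrays read 9.78 to 9.84 in adults and 9.49 to 9.70 in larvae, above every knockdown array.

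Of the 9 tested genes of selenoprotein synthesis and the selenoproteins with their relatives, 5 rose in knockdown adults and 1 fell, with a median of 0.58 against 0.55 for all genes. BthD, a selenoprotein, read 10.52, 10.47 and 10.44 in adults and 7.5, 7.48 and 7.84 in larvae. All 3 adult arrays lay far above the larval ones, and BthD rose 7.31-fold (log2 2.87, SE 0.10, limma adjusted p = 6.06e-11). Sbp2, which binds the selenocysteine insertion element of the mRNA, read 10.22, 10.28 and 10.22 against 8.14, 8.32 and 8.46 and rose 3.82-fold. The elongation factor eEFSec, which brings selenocysteinyl-tRNA to the ribosome, rose 2.27-fold. SecS, which makes selenocysteine on its tRNA, rose 1.67-fold, and Secp43 rose 1.49-fold. SelR, a methionine sulfoxide reductase, fell by 0.17 (SE 0.04), and its other probe set read -0.02 (not called). The selenoprotein SelG (-0.12, SE 0.07) and SelT (-0.08, SE 0.05), whose fly form has cysteine in place of selenocysteine, were not called as deposited, and SelG was called without adult knockdown replicate 3 or larval knockdown replicate 1. The rises of Secp43 and SecS depended on the scaling: after quantile normalization Secp43 read -0.13 and SecS 0.03, neither called, and Sps2 (-0.81) and SelG (-0.63) were then called lower. After median centring Sps2 (-0.63), SelG (-0.47) and SelT (-0.42) were called lower and Secp43 (0.23) was not called, while SelT read 0.09 after quantile normalization.

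Genes of the larval body wall fell by large amounts. Lcp65Ag3, a larval cuticle protein, read 14.53, 14.60 and 14.64 in knockdown larvae and 3.57, 5.83 and 4.44 in knockdown adults. It was among the brightest transcripts of the larval arrays and below the 40th percentile on 2 of the adult ones, at least 591-fold lower (log2 -9.98, SE 0.39, limma adjusted p = 1.11e-10). For a stage whose mean did not reach that percentile (34.2 to 41.9 in linear signal over the arrays), readings below that of their array were raised to it. The fold is then taken against the mean of the raised readings and written "at least". Of the 7 larval cuticle proteins tested, all fell, with a median of -9.98. Lcp65Af, Lcp65Ae and Lcp9 were at least 633-fold, 605-fold and 493-fold lower. Copies in these clusters are close in sequence, and signal shared between their probe sets cannot be told apart.

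Among the wider cuticle protein families (Cpr, Ccp84 and Tweedle), 56 of the 75 genes tested fell and 5 rose, with a median of -3.98. Cpr47Ec read 14.34, 14.28 and 14.29 in larvae and 3.65, 3.54 and 4.14 in adults. The arrays of each stage lay close together, and the gene was at least 576-fold lower (SE 0.14 on a log2 change of -10.53, limma adjusted p = 1.63e-14). Cpr49Af fell from 13.12, 13.10 and 13.06 to 1.37, 0.68 and 0.82, readings below the 40th percentile, at least 248-fold. The Tweedle protein TwdlO was at least 339-fold lower, and Cpr47Eg at least 548-fold lower. The family was not uniform. Cpr72Ec (6.52), Cpr49Ab (6.71) and Cpr65Au (4.19) were called higher in adults, and were picked out here after their values were seen.

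Most genes for making and turning over chitin, the polysaccharide that these proteins bind, fell as well. Of 35 genes of chitin synthesis and turnover, 31 fell and 4 rose, with a median of -3.47. kkv, the chitin synthase of the epidermis, read 11.43, 11.34 and 11.17 in larvae and 4.38, 5.12 and 5.28 in adults, at least 69.9-fold lower (log2 -6.39, SE 0.30). The chitin deacetylase Cda4 was at least 73.4-fold lower, and the chitin-binding obstructor proteins obst-I, obst-J and obst-H were at least 43.6-fold, 40.8-fold and 14.51-fold lower. For Cda4 the adult arrays were spread between 1.01 and 5.28, all of them far below the larval readings of 11.32 to 11.47.

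Some genes of the salivary gland and several mucins showed the same contrast. ng1, a new-glue gene of the larval salivary gland, read 13.74, 13.43 and 13.60 in larvae and 3.46, 1.23 and 2.48 in adults. It was at least 351-fold lower, ng2 at least 299-fold and ng3 at least 223-fold. Only 4 of 22 genes of the glue list were tested, and the last, Sgs5, read 0.64 (not called). With no filter 20 genes of the list were tested, of which 6 were called lower, with a median of -1.16. Pig1, another gene of the salivary gland, was at least 140.2-fold lower, and the mucins Muc18B and Muc96D were at least 137-fold and 119-fold lower. Acbp4, an acyl-CoA-binding protein, read 13.62, 13.82 and 13.997 in larvae and 3.46, 3.90 and 4.68 in adults, at least 408-fold lower. l(3)mbn was at least 137-fold lower.

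**Figure D2:**
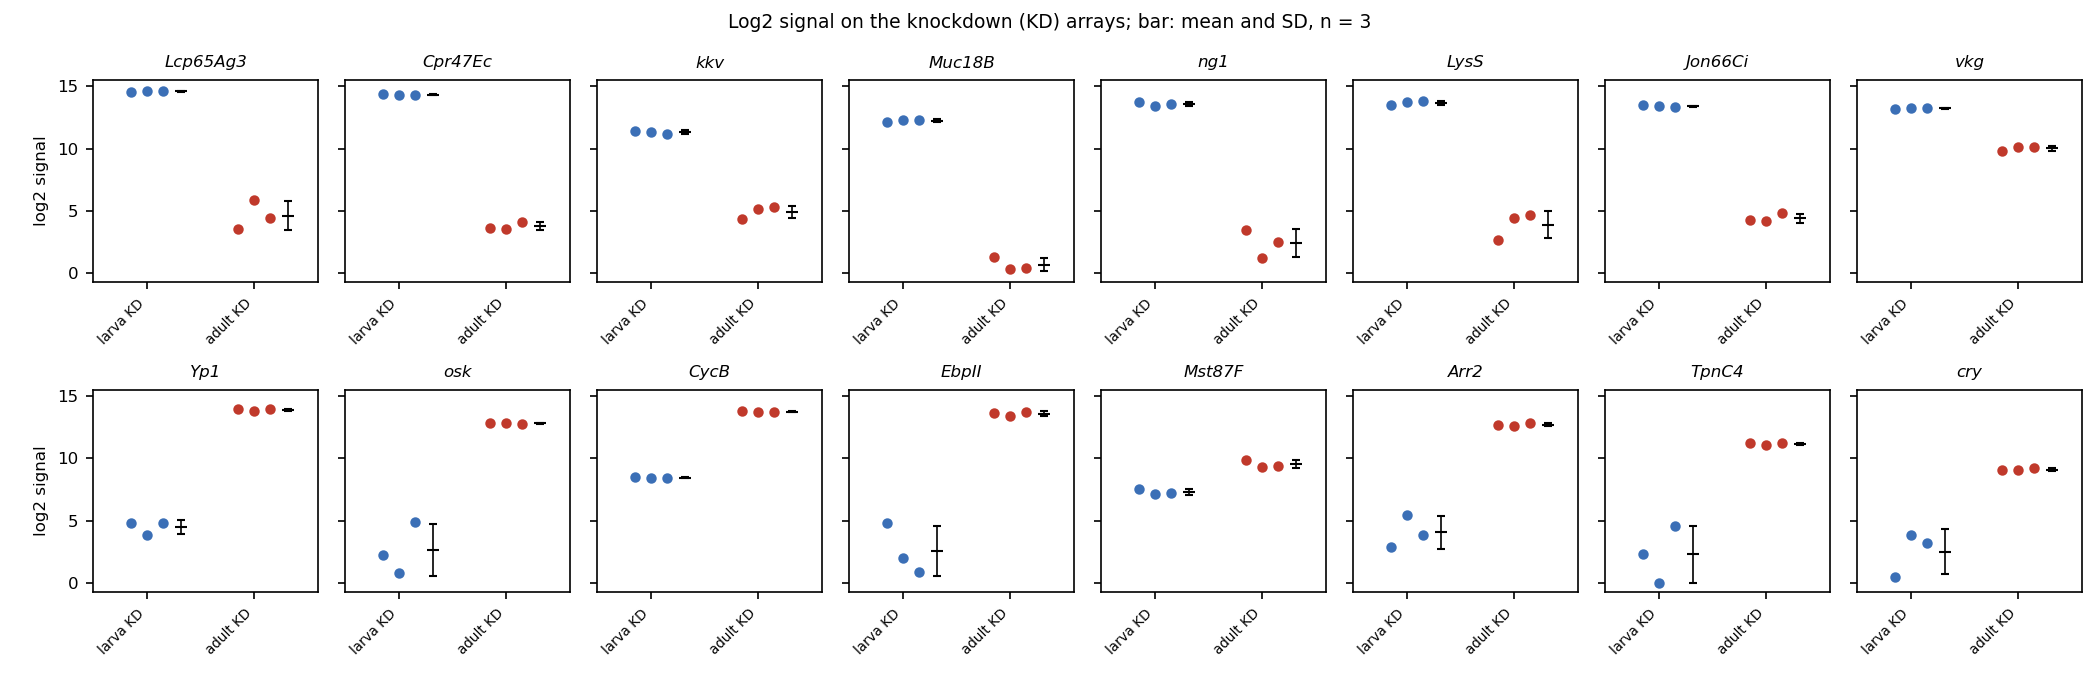
Log2 signal (vertical axis) of 16 genes on the 3 larval (blue) and 3 adult (red) knockdown arrays, with the mean and SD beside the points (n = 3). Genes of the upper row read higher in larvae and genes of the lower row higher in adults; in no panel do the stages overlap.

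Lysozymes, the bacterial cell wall hydrolases of the fly gut, changed in opposite directions. LysS read 13.53, 13.69 and 13.84 in larvae and 2.63, 4.40 and 4.68 in adults, at least 375-fold lower. LysP read 9.57, 9.46 and 9.53 in adults and 4.31, 3.80 and 3.81 in larvae, at least 19.3-fold higher. LysX was higher in adults and scattered within both stages, with 8.50, 10.14 and 11.17 in adults and 3.27, 5.52 and 6.02 in larvae. The stages did not overlap, but the fold of LysX, at least 20.1, moved to 13.1 without adult knockdown replicate 3 and to 33.04 without adult knockdown replicate 1. The lysozyme genes are near copies of one another, so their probe sets may share signal.

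Digestive enzymes were mixed, with 25 of 43 lower in adults, 10 higher and a median of -1.03. Jon66Ci, a Jonah serine protease, read 13.45, 13.39 and 13.34 in larvae and 4.28, 4.15 and 4.81 in adults, at least 306-fold lower (SE 0.15 on a log2 change of -8.98). Jon65Aii fell 17.0-fold. Jon65Aiv was bright at both stages and fell 2.04-fold, from 14.51, 14.62 and 14.71 to 13.65, 13.46 and 13.66. Against this direction, the maltase Mal-A7 rose 16.4-fold, and the serine proteases Ser7 (at least 10.4-fold) and Ser12 (9.82-fold) rose. Bace, the fly aspartic protease named after the vertebrate beta-secretase, rose 204-fold, from 5.74, 5.41 and 5.56 to 13.33, 13.05 and 13.32. Of 13 genes of the Malpighian tubule, the excretory organ, 8 fell and 4 rose: the potassium channel Irk2 fell 3.50-fold and the phosphate transporter Picot 2.63-fold, while the zinc transporter ZnT35C rose 5.86-fold and Best2 rose 2.38-fold.

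Blood cell and basement membrane genes were mostly lower in adults. Of 15 haemocyte genes, 11 fell and 2 rose, with a median of -1.47. vkg, an alpha chain of type IV collagen, read 13.19, 13.29 and 13.21 in larvae and 9.81, 10.11 and 10.13 in adults. Its partner chain Col4a1 read 13.14, 13.15 and 13.05 against 9.38, 9.59 and 9.28. Both collagen chains kept to a narrow range within each stage and fell 9.28-fold and 12.97-fold. The haemocyte surface protein He was at least 21.9-fold lower, the clotting protein Hml fell 5.53-fold, the phagocytosis receptor NimC1 fell 2.78-fold, and the prophenoloxidase PPO2 fell 2.51-fold. Only 1 haemocyte gene rather than 2 was called higher without adult knockdown replicate 1, adult knockdown replicate 3 or larval knockdown replicate 1.

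Genes of female reproduction rose by large amounts. All 22 tested genes for yolk, eggshell and spermathecal secretion rose, with a median of 7.65. Yp1, a yolk protein, read 13.96, 13.83 and 13.92 in adults and 4.84, 3.84 and 4.83 in larvae, at least 402-fold higher (log2 9.40, SE 0.38, limma adjusted p = 1.52e-10). Yp2 and Yp3 rose 326-fold and 106-fold. The chorion proteins Cp36 and Cp16 were at least 269.7-fold and 176-fold higher, the vitelline membrane protein Vm32E at least 132-fold, and yl, the receptor through which oocytes take up yolk, at least 69.4-fold. The larval arrays put these genes at or near background, where readings of a gene differ by several log2 units between replicates (2.09, 5.12 and 4.94 for Cp36).

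Of 23 genes of oogenesis and maternal supply, 21 rose, betaTub56D fell and grk was not called, with a median of 5.73. osk, which directs the posterior pole of the oocyte, read 12.84, 12.82 and 12.77 in adults and 2.20, 0.77 and 4.89 in larvae. The adult arrays agree closely and the larval ones do not, and osk was at least 188-fold higher. mtrm, an inhibitor of Polo kinase in oocyte meiosis, was at least 202-fold higher, and orb, an RNA-binding protein of the oocyte, at least 76.9-fold. dhd, a thioredoxin of the ovary, rose 427-fold, from 5.95, 5.40 and 4.87 to 14.18, 14.09 and 14.17. fit, a secreted factor made mainly in females, was at least 148-fold higher.

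All 33 tested genes of cell division and DNA synthesis rose as well, each by at least 2-fold, with a median of 2.33. CycB, the mitotic cyclin that is also loaded into eggs, read 13.79, 13.69 and 13.75 in adults and 8.49, 8.45 and 8.42 in larvae. The readings within a stage lay within 0.10 of each other, and CycB rose 39.0-fold (log2 5.29, SE 0.04, limma adjusted p = 4.96e-16). CycB3 and pim, the securin of the fly, rose 34.0-fold and 30.7-fold, and Orc1, of the replication origin complex, 17.7-fold. The replication clamp PCNA, with 12.58, 12.61 and 12.56 in adults and 10.05, 10.16 and 10.07 in larvae, rose 5.61-fold and RnrL, the large subunit of ribonucleotide reductase, 5.03-fold.

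Male genes rose too, so that transcripts typical of both sexes were read in the adult samples. All 34 tested genes of the accessory gland and seminal fluid rose, with a median of 6.64. EbpII, a protein of the ejaculatory bulb, read 13.66, 13.38 and 13.71 in adults and 4.77, 1.97 and 0.87 in larvae, at least 322-fold higher. Acp53C14b rose from 0.50, 0.14 and 0.00, readings below the 40th percentile, to 12.47, 12.22 and 12.90, at least 156-fold. The sex peptide SP, which changes female behaviour after mating, was at least 116-fold higher, and Acp36DE, which takes part in sperm storage, rose 107-fold. Other rises were those of Mst57Da (at least 237-fold), Acp98AB (at least 209-fold), Acp53C14a (at least 154-fold) and Mst57Dc (at least 90.5-fold).

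Of 41 testis and sperm genes, 33 rose and Prosbeta2R2 fell, with a median of 1.90. The fall of Prosbeta2R2 was not called without adult knockdown replicate 2 or larval knockdown replicate 1. Mst87F, a structural protein of the sperm tail, read 9.87, 9.27 and 9.39 in adults and 7.56, 7.11 and 7.18 in larvae. These genes were already read in larvae, and Mst87F rose 4.67-fold. Mst84Dd rose 7.67-fold, Mst84Da 6.93-fold, the sperm leucyl aminopeptidase S-Lap7 7.04-fold and dj, of sperm mitochondria, 3.05-fold. twe, the Cdc25 phosphatase of meiosis, was at least 24.1-fold higher and is active in the ovary as well. Of the 11 meiotic arrest and testis transcription factors, by contrast, 7 fell and 0 rose, with a median of -1.17 and summed linear signals of 570.3 to 667 in adults and 901 to 1272 in larvae. This list was dim, with a median level of 4.79 in knockdown adults, where the 40th percentile averaged 5.14. The median change was -0.82 with dim values raised to that percentile. With a filter at the 60th percentile only 2 genes remained, 1 of them lower, with a median of -0.49.

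Sex determination and dosage compensation genes moved by smaller amounts, with 9 of 12 higher, 1 lower and a median of 1.21. msl-3, of the complex that raises X-linked transcription in males, rose 5.13-fold, mof 2.83-fold, tra, the splicing regulator of female development, 2.73-fold and ix 2.66-fold.

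Genes of the adult eye rose. Of 23 phototransduction and eye genes tested, 18 rose, 2 fell and the median was 1.71. Arr2, the main arrestin of photoreceptors, read 12.66, 12.62 and 12.83 in adults and 2.88, 5.47 and 3.81 in larvae, at least 163-fold higher (log2 8.65, SE 0.44, limma adjusted p = 1.4e-09). Arr1 rose 56.2-fold, from 5.99, 6.24 and 6.11 to 11.94, 11.83 and 12.02. The photoreceptor dehydrogenase Pdh was at least 86.5-fold higher, the corneal lens protein retinin at least 52.7-fold and the light-gated channel trp at least 9.29-fold. Of the falls, 1 was not called without larval knockdown replicate 1. Several opsins, among them ninaE, were not analysed here.

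Of 10 circadian clock genes, 8 rose and 1 fell, with a median of 1.67. Without adult knockdown replicate 1 or 2, or any one of the wild-type adult arrays, 5 were called higher. The number higher was also 5 after quantile normalization, after median centring and with no filter. The fall was not called without adult knockdown replicate 2 or larval knockdown replicate 1. cry, the blue-light receptor that resets the clock, read 9.05, 9.03 and 9.21 in adults and 0.47, 3.84 and 3.24 in larvae, at least 14.3-fold higher. cyc, a transcription factor of the clock, rose 17.2-fold, tim, a repressor of it, 13.8-fold and vri 2.65-fold, though vri read 0.71 after quantile normalization and was not called (limma adjusted p = 0.0628). No source used here gives the time of day at sampling, so that for tim and vri, which cycle, stage and clock time cannot be told apart.

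Odorant-binding proteins, which carry odours and other small molecules, were divided almost evenly, with 16 of 38 higher and 19 lower. Obp56g, at 12.74, 12.47 and 12.76 in adults and 2.25, 4.76 and 4.27 in larvae, was at least 169-fold higher, and Obp57a at least 21.7-fold. Obp83g went the other way, from 12.92, 12.91 and 12.92 in larvae to 0.26, 5.53 and 4.69 in adults, at least 199-fold lower, and Obp56b was at least 10.5-fold lower. Obp83b was at least 1.88-fold higher, a bound that moved to 1.24 without adult knockdown replicate 3 and to 3.70 without adult knockdown replicate 2, since the adult arrays read 6.92, 4.20 and 7.36. Only 11 of 187 odorant, gustatory and ionotropic receptors were bright enough to test, of which 3 rose and 3 fell.

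Most muscle genes were lower in adults, and a few of the adult muscles were higher. Of 23 sarcomere genes, 18 fell and 5 rose, with a median of -2.04. The 5 that rose were the flight muscle troponin C TpnC4 (at least 59.9-fold), flightin (fln, at least 35.9-fold), the actins Act79B (at least 48.0-fold) and Act88F (8.22-fold), and TpnC41C (at least 33.7-fold). TpnC4 read 11.19, 11.09 and 11.19 in adults and 2.35, 0.00 and 4.54 in larvae. Act79B, an actin of adult tubular muscle, read 10.72, 10.81 and 10.99 against 4.36, 5.09 and 4.54. The 18 that fell, examples being TpnC73F (-5.01), up (-4.01), Tm2 (-3.75) and Prm (-3.25), include general sarcomere components; these examples were picked out after their values were seen.

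Neuronal genes had no common direction. Of 27 tested, 9 rose, 8 fell and 10 were not called, with a median of -0.10, and the summed linear signals overlapped (8915 to 9417 in adults, 9183 to 9620 in larvae). elav, an RNA-binding protein of all neurons, fell by 0.83 (SE 0.12), from 8.54, 8.34 and 8.21 to 7.49, 7.69 and 7.42. The synaptic genes unc-13 and Snap25 rose by 1.28 (SE 0.10) and 0.88 (SE 0.10), but Snap25 read 0.20 after quantile normalization and was not called (limma adjusted p = 0.0886). Ddc, which makes dopamine and also serves cuticle tanning, fell 4.21-fold, from 10.17, 9.59 and 10.73 to 8.03, 8.06 and 8.18. The sign of the median turned with the arrays used, to 0.03 without adult knockdown replicate 1 and 0.02 without larval knockdown replicate 2. After quantile normalization 4 were higher and 11 lower, with a median of -0.37.

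Patterning genes of the imaginal discs were mostly lower, with 18 of 23 falling, 1 rising and a median of -1.10. The list was dim at both stages, with summed linear signals of 1297 to 1461 in adults and 2676 to 2917 in larvae.

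Hormone genes were divided. Of 27 genes of ecdysone and juvenile hormone signalling, 10 rose and 8 fell, with a median of 0.22 that became -0.12 after median centring. shd, the P450 that activates ecdysone to 20-hydroxyecdysone, read 8.75, 8.35 and 8.35 in larvae and 5.13, 5.75 and 5.29 in adults and fell 8.53-fold. br, a transcription factor of the early ecdysone response, fell 6.34-fold, while its other probe sets read -1.80 (called), -0.55 and 0.11 (not called). The ABC transporter E23, an ecdysone target, rose 17.9-fold. tor, at least 24.04-fold higher, encodes the receptor for prothoracicotropic hormone in larvae and is also a maternal transcript. Among 10 genes of insulin and growth signalling, Ilp5 fell 2.63-fold, foxo rose 2.53-fold, InR rose 1.71-fold and Ilp8, the relaxin-like peptide of damaged discs and of the ovary, was at least 14.46-fold higher; after quantile normalization InR read 0.06 and was not called.

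Most genes of energy metabolism were lower in adults. Of 57 subunits of oxidative phosphorylation, 54 fell, 2 rose and the median was -1.0, with a range of -1.50 to 3.60. COX7A, of cytochrome c oxidase, read 13.97, 14.02 and 14.06 in larvae and 12.73, 12.73 and 12.71 in adults, a 2.45-fold fall (log2 -1.29, SE 0.04, limma adjusted p = 1.59e-11). The complex I subunits ND-B14.5A and ND-B14.5B fell 2.82-fold and 2.41-fold. The 2 members that rose were ND-B8, at least 7.26-fold higher, and sun, with 1.84. In glycolysis and its side branches 9 of 12 fell, with Pgi down 2.58-fold, Pfk 2.25-fold and Pglym78 2.19-fold. Gpdh1, of the glycerol phosphate shuttle, fell 4.05-fold on its brightest probe set. Of its other probe sets 2 fell by 1.06 and 1.09 and 1 rose by 2.89. The probe sets of this gene did not change alike, and the cause was not tested. In the citrate cycle 10 of 11 fell, among them ScsbetaG (3.66-fold), Idh (2.32-fold), Idh3a (1.88-fold) and Mdh1 (1.81-fold). The value for ScsbetaG is that of its brightest probe set, and its other probe sets read -0.41 (called) and -0.58 (not called).

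These small falls lean on the scaling of the arrays, as do those of the ribosome. Quantile normalization brought the median of oxidative phosphorylation to -0.29, of glycolysis to -0.04 and of the citrate cycle to -0.08, and Mdh1 then read 0.05. Median centring moved the same medians down, to -1.35, -1.22 and -0.89. The larval cuticle proteins kept medians of -10.32 to -9.49 under these scalings, and the yolk, eggshell and spermathecal genes 7.31 to 8.09.

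**Figure D3:**
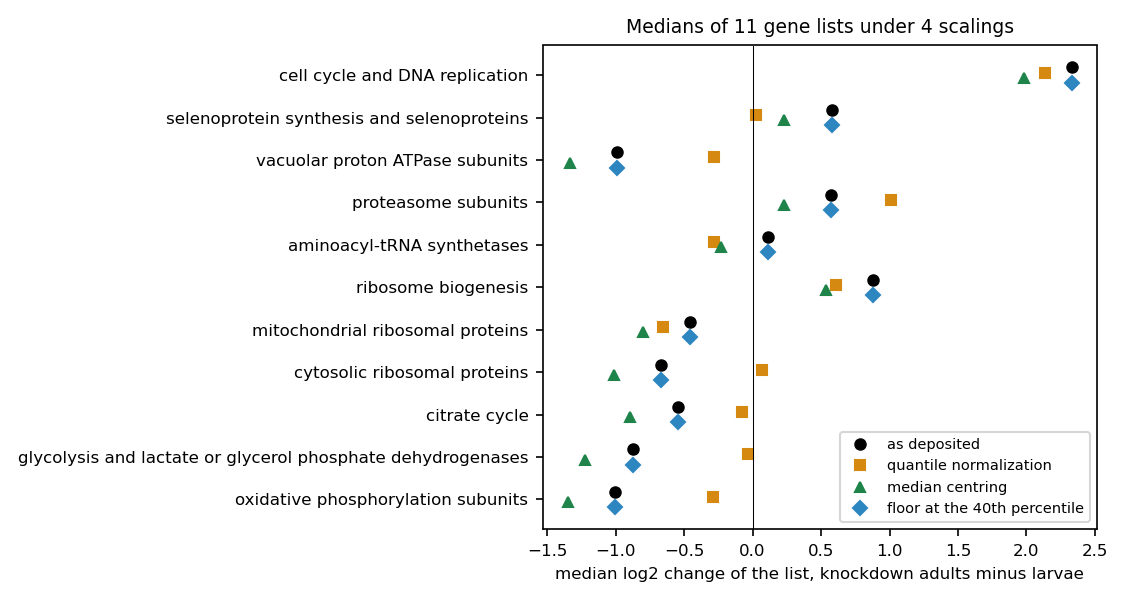
Median log2 change between knockdown larvae and adults (horizontal axis) of 11 gene lists with the values as deposited (black circles), after quantile normalization (orange squares), after median centring (green triangles) and with dim values raised to the 40th percentile of their array (blue diamonds). The cytosolic ribosomal proteins move from -0.67 to 0.07 under quantile normalization, and the aminoacyl-tRNA synthetases from 0.11 to -0.28, while the cell cycle genes stay above 1.9 under all 4.

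Of 32 cytosolic ribosomal proteins with a probe set of their own, 30 fell, 1 rose and the median was -0.67; after quantile normalization 16 were higher, 2 lower and the median was 0.07. RpL27 read 14.39, 14.33 and 14.30 in larvae and 13.61, 13.58 and 13.57 in adults, near the top of the scale, and fell by 0.75, but read 0.06 after quantile normalization. Of the copies used in the gonads, RpS5b rose 12.2-fold and RpS19b fell 3.26-fold. Mitochondrial ribosomal proteins fell in 55 of 71 cases and rose in 5 (in 1 without larval knockdown replicate 1, and in 3 without adult knockdown replicate 2 or 3), with a median of -0.45 and the largest named fall in mRpL55 (2.35-fold). Ribosome biogenesis went up instead, with 23 of 27 higher, 0 lower and a median of 0.88, and 1 lower without adult knockdown replicate 2 or larval knockdown replicate 1. The pseudouridine synthase Nop60B, at 12.29, 12.19 and 12.18 in adults and 10.14, 10.56 and 10.50 in larvae, rose 3.53-fold. Its other probe set rose by 0.95. The genes mbm and Bka rose 3.34-fold and 3.14-fold.

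All 26 proteasome subunits tested rose, by a median of 0.57 that is near the 0.55 of all genes, and median centring left 16 higher and 3 lower. Rpn13 rose 2.19-fold, the rest by less than 2-fold. Of 31 subunits of the vacuolar proton pump 18 fell and 10 rose. Vha100-5 and Vha100-4 fell 7.32-fold and 7.18-fold, and VhaAC45, at 13.70, 13.72 and 13.82 in larvae and 12.22, 12.28 and 12.28 in adults, fell 2.80-fold. Of 30 aminoacyl-tRNA synthetases, 14 were higher and 10 lower as deposited, 4 and 18 after quantile normalization and 5 and 15 after median centring. The mitochondrial enzymes IleRS-m and AspRS-m rose 2.24-fold and 2.13-fold. Among 8 heat shock proteins and their constitutive relatives 5 fell and 1 rose, with a median of -0.44; after quantile normalization 2 were lower and 4 higher, with a median of 0.25. Hsp68 fell 60.2-fold, from 12.97, 12.75 and 12.96 to 6.96, 7.05 and 6.93, and Hsc70-1 rose 6.41-fold on its brightest probe set and by 1.93 and 2.34 on the others.

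Lipid genes were mixed, with 11 of 28 higher and 15 lower. The desaturase Fad2 and the elongase eloF make the long-chain pheromones of the female cuticle; Fad2 was at least 67.0-fold higher, and eloF rose 31.5-fold. Fad2 read 11.42, 11.21 and 11.32 in adults and 4.62, 4.46 and 4.46 in larvae. The fatty acid synthase FASN3 rose 17.6-fold and the lipocalin NLaz 11.4-fold, and whd, the carnitine palmitoyltransferase of fatty acid import into mitochondria, rose 1.81-fold.

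The detoxification families were lower in adults more often than higher. Of 74 cytochrome P450 genes 39 fell and 16 rose, of 33 glutathione transferases 25 fell and 5 rose, and of 30 UDP-glycosyltransferases 19 fell and 5 rose. Cyp28d2 read 11.35, 11.76 and 12.06 in larvae and 4.73, 4.60 and 5.01 in adults, at least 96.1-fold lower, and Cyp4c3 was at least 10.9-fold lower. Cyp313a1 and Cyp312a1 went up, at least 23.9-fold and 11.8-fold. GstD7, at 11.68, 11.66 and 11.85 in larvae and 4.32, 5.005 and 5.09 in adults, was at least 96.5-fold lower, and GstD10 fell 23.6-fold. Ugt37C1 and Ugt37A3 were at least 25.8-fold and 17.3-fold lower. Of 15 peroxiredoxins, thioredoxins and antioxidant enzymes 8 fell and 5 rose, 1 of the latter being the ovarian dhd; 3 were higher without adult knockdown replicate 2 or 3, larval knockdown replicate 3 or any one of the wild-type adult arrays. The peroxiredoxin Prx6c fell 6.25-fold, from 13.27, 13.30 and 13.30 to 10.55, 10.56 and 10.84, and malic enzyme (Men) fell 2.90-fold. The extracellular superoxide dismutase Sod3 rose 5.28-fold on its brightest probe set and by 1.02 on the other.

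Of 10 antimicrobial peptide genes 4 rose, 1 fell and 5 were not called, with a median of 0.87 that was 0.25 without adult knockdown replicate 3 and 1.48 without adult knockdown replicate 1. The number lower was 2 without adult knockdown replicate 1 or larval knockdown replicate 1. Def, or defensin, was at least 17.9-fold higher, and the drosomycin relatives Drsl5 and Drsl4 rose 37.8-fold and 23.3-fold. Drosomycin itself (Drs) read 12.99, 12.63 and 12.84 in adults and 10.93, 10.73 and 10.68 in larvae and rose 4.11-fold. Diptericin B (DptB) fell 4.50-fold (limma adjusted p = 0.0135), from 10.09, 9.01 and 10.59 to 7.82, 7.49 and 7.87, a call that was lost without larval knockdown replicate 3 (adjusted p = 0.0571). The Bomanins, short secreted peptides of the Toll response, rose too: BomS6 read 12.34, 12.35 and 12.37 in adults and 0.00, 1.16 and 3.91 in larvae, at least 137-fold higher, and BomBc2 was at least 64.0-fold higher.

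The same stage difference was then read in wild type, whose arrays are separate from those of the knockdown though they share the model's estimate of the spread. In wild type 8767 of 10426 genes were called (84.1%), 81.7% of probe sets were, and the stages did not overlap for 85.1% of probe sets. Both contrasts called 7965 genes, which is 91.5% of those of the knockdown and 90.9% of those of wild type, and 7884 of them moved in one direction (98.98%). Across genes, which are not independent replicates, the changes correlated at r = 0.94. Among the 1503 genes that changed by at least 8-fold in wild type and were called in both, the median ratio of the knockdown change to the wild-type change was 0.905 on the log2 scale. These genes were picked by the size of their wild-type change, which is also the divisor, and that choice by itself lowers the ratio. The ratio therefore cannot show whether the stage change was weaker in the knockdown.

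**Figure D4:**
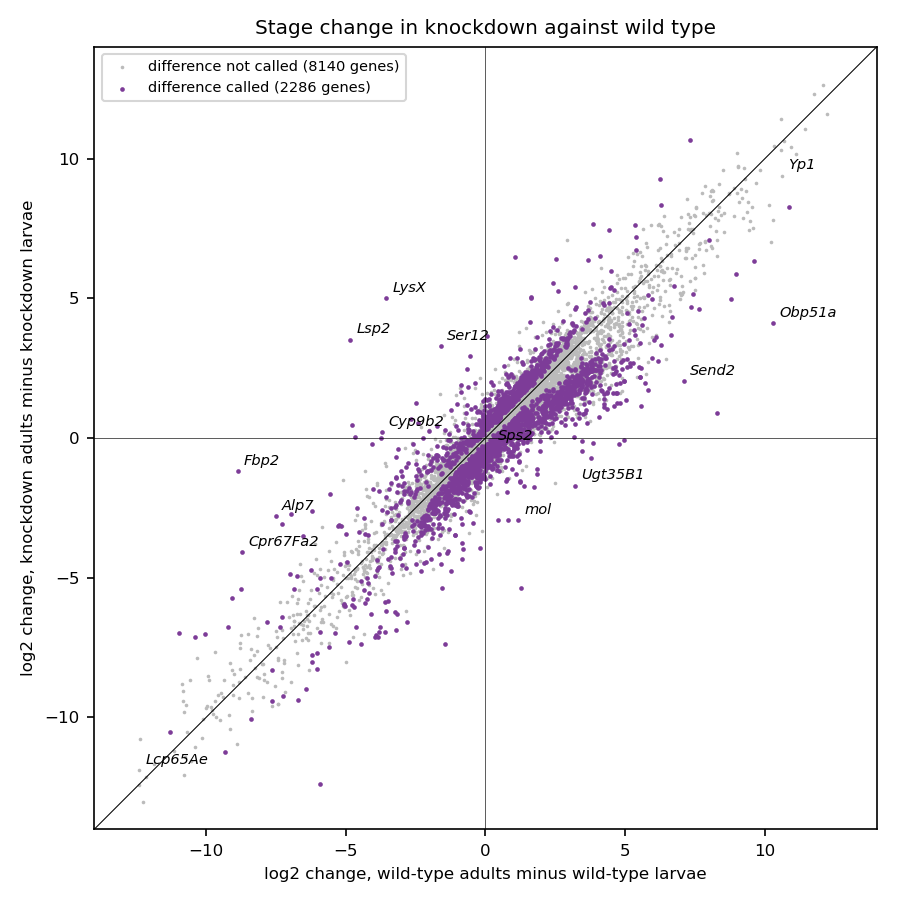
Change between larva and adult in wild type (horizontal axis, log2) against that in the knockdown (vertical axis, log2) for 10426 genes; purple points are the 2286 genes whose stage changes differed between genotypes (limma adjusted p under 0.05), and the diagonal marks equal change. Most genes lie along the diagonal, and LysX and Lsp2 stand in the quadrant of a rise in the knockdown and a fall in wild type.

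The difference between the stage changes was tested directly, as an interaction of stage and genotype, and was called for 2286 genes (21.9%), with the knockdown change above that of wild type for 852 (8.17%) and below it for 1434 (13.8%). This balance was set by the scaling: over probe sets it was 1009 above and 1656 below as deposited, 1333 and 1436 after quantile normalization and 3953 and 716 after median centring. Of the genes called 1725 moved in one direction in both genotypes and differed in size, and 81 moved in opposite directions, 23 of them upward and 58 downward in the knockdown.

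Lsp2, a storage protein that the larval fat body secretes before metamorphosis, was one of the genes that changed in opposite directions. In the knockdown it read 7.81, 6.99 and 6.28 in larvae and 10.64, 10.55 and 10.45 in adults, an 11.5-fold rise (log2 3.52, SE 0.89, limma adjusted p = 0.0027). In wild type it read 9.78, 14.08 and 14.02 in larvae and 7.81, 7.15 and 8.37 in adults, a change of -4.85. Every wild-type larval array was above every knockdown larval array, and the knockdown adults were above the wild-type adults. The difference was 8.37 (SE 1.25, limma adjusted p = 0.00101), and 9.79 without wild-type larval replicate 1, whose Lsp2 reading stood apart from the other 2.

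Fbp2, another protein of the larval fat body, had the same larval contrast. It read 5.44, 4.90 and 4.04 in knockdown larvae and 8.32, 13.03 and 13.39 in wild-type larvae, while adults of either genotype read 1.79 to 4.26. Its stage change of -1.18 in the knockdown was not called (limma adjusted p = 0.34), against -8.88 in wild type, a difference of 7.70 (SE 1.57, adjusted p = 0.00581). The Fbp2 means of knockdown larvae and of adults of either genotype were below the 40th percentile of their arrays. The sizes of both changes and of the difference thus rest in part on background. Wild-type larval replicate 1 was again the lowest of its group. The age of the larvae is not given by any source used here, so for Lsp2 and Fbp2 larval age and genotype cannot be told apart. Of 6 genes of the serum and fat body protein list only Lsp2 and Fbp2 were tested.

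LysX rose in the knockdown as given above and fell in wild type, from 5.84, 6.16 and 5.95 in larvae to 3.19, 2.50 and 1.6 in adults, a difference of 8.55 (SE 1.05, limma adjusted p = 0.000295). The larval readings overlapped between genotypes and the adult readings did not. The wild-type adult readings of LysX were below the 40th percentile of their arrays (5.30 to 5.39), so the sizes of its wild-type fall and of the difference rest in part on background. LysP rose in both, by 5.55 in the knockdown and by 2.40 in wild type. mol, whose product helps to bring the NADPH oxidase Duox to the membrane, fell 7.70-fold in the knockdown, from 9.46, 9.29 and 8.79 to 6.55, 6.39 and 5.77. In wild type mol rose from 9.53, 9.27 and 8.90 to 10.41, 10.48 and 10.31, and the difference was -4.11 (SE 0.31, adjusted p = 1.17e-05). The UDP-glycosyltransferase Ugt35B1 was near background at both stages of the knockdown and read 9.27, 9.54 and 9.55 in wild-type adults, a difference of -4.91.

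**Figure D5:**
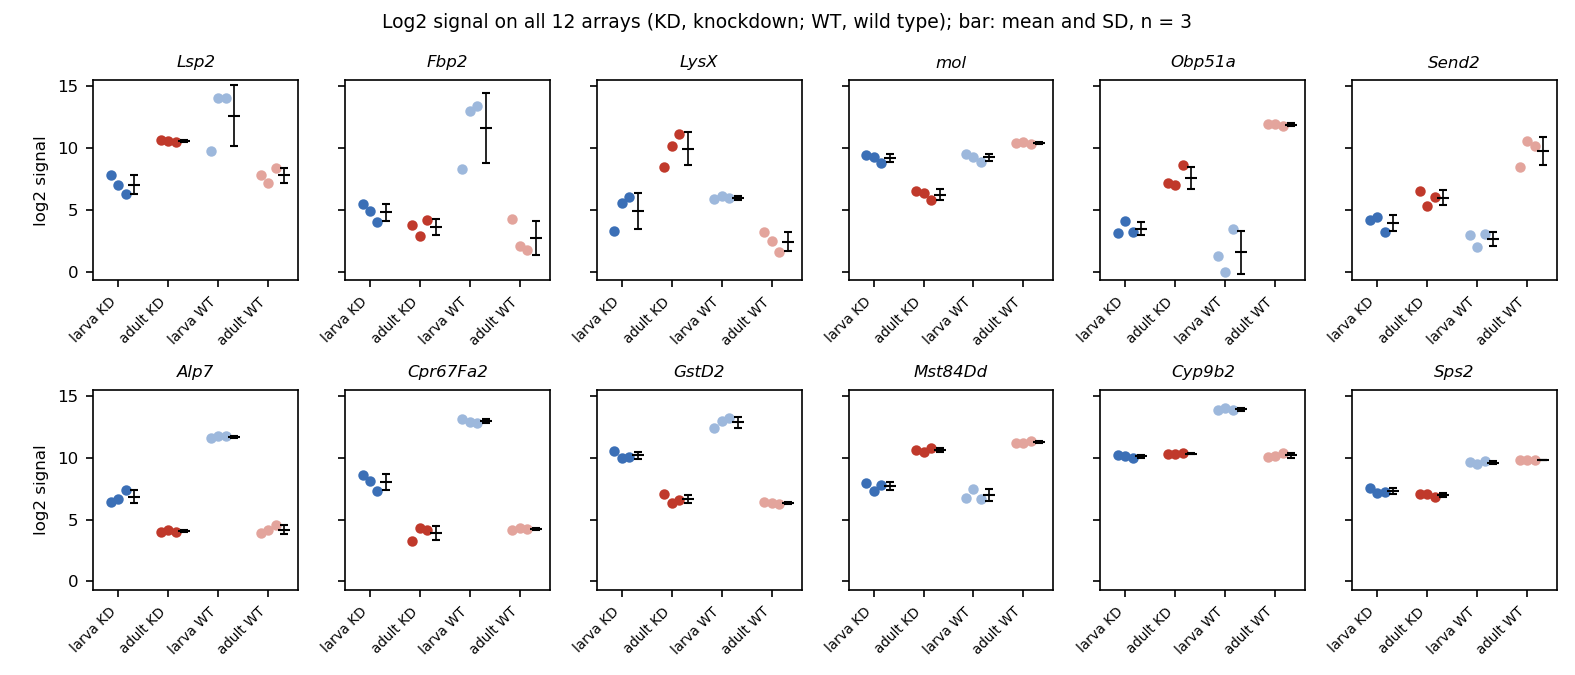
Log2 signal (vertical axis) of 12 genes on all 12 arrays: knockdown larvae (dark blue), knockdown adults (dark red), wild-type larvae (light blue) and wild-type adults (light red), with the mean and SD beside the points (n = 3). Lsp2 and Fbp2 are high in wild-type larvae, LysX is high in knockdown adults, Obp51a and Send2 are highest in wild-type adults, and all 6 knockdown readings of Sps2 are below its wild-type readings.

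Several transcripts whose wild-type level fell from larva to adult were already lower in knockdown larvae. Cyp9b2, a cytochrome P450, read 10.24, 10.10 and 9.996 in knockdown larvae and 13.83, 14.03 and 13.88 in wild-type larvae, against 10.08 to 10.40 in adults of both. Its change in the knockdown was 0.22 (limma adjusted p = 0.0374), was not called without adult knockdown replicate 1 or 3 or larval knockdown replicate 2 or 3 (adjusted p up to 0.142), and became -0.12 after median centring, and the difference from wild type was 3.94 (SE 0.13, adjusted p = 3.71e-09). The alkaline phosphatase Alp7 read 6.42, 6.67 and 7.41 in knockdown larvae and 11.61, 11.75 and 11.76 in wild-type larvae, a difference of 4.73. The cuticle proteins Cpr67Fa2 and Cpr49Ad differed by 4.63 and 3.60 in the same way, and GstD2, at 10.53, 9.95 and 10.08 against 12.38, 12.97 and 13.22 in larvae, by 3.02. The chitin deacetylase Cda9 instead stayed higher in knockdown adults, at 6.47, 6.82 and 6.90 against 3.54, 2.43 and 1.94, a difference of 4.21.

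Other transcripts rose less in the knockdown and were lower in its adults. Obp51a read 7.14, 6.99 and 8.64 in knockdown adults and 11.93, 11.95 and 11.76 in wild-type adults, a difference of -6.20 (SE 0.99, limma adjusted p = 0.00148). Send2, an endopeptidase of the spermatheca, read 6.52, 5.34 and 6.07 against 8.50, 10.57 and 10.19, a difference of -5.08. Hesr (5.77, 5.99 and 5.78 against 7.81, 9.03 and 8.21) differed by -3.73 and Obp57b by -3.40. The rise of Hesr in the knockdown was not called without larval knockdown replicate 3 (adjusted p = 0.0505), and that of Send2 was not called with dim values raised to the 40th percentile (0.72). Jon66Ci fell in both genotypes and was lower in knockdown adults (4.28, 4.15 and 4.81) than in wild-type adults (8.05, 7.83 and 7.56), a difference of -2.56.

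The counts by gene group are to be read against all genes, of which the difference was above 0 for 8.17% and below 0 for 13.8%, and they depend on the scaling as those do. Of 41 testis and sperm genes the difference was called below 0 for 21 and above 0 for none, with stage medians of 1.90 in the knockdown and 3.16 in wild type. Mst87F rose by 2.22 against 3.89, and Mst84Dd read 10.65, 10.49 and 10.76 in knockdown adults and 11.19, 11.22 and 11.36 in wild-type adults. Of 33 cell cycle genes the difference was above 0 for 16 and below 0 for none, with CycB at 0.69 and PCNA at 0.43. Of 71 mitochondrial ribosomal proteins it was below 0 for 23 and above 0 for 2, of 57 oxidative phosphorylation subunits below 0 for 12, and of 27 ribosome biogenesis genes below 0 for 9 and above 0 for 1. These last differences are under 1 log2 unit, and for mRpL33 (-0.38) median centring left -0.01. In other lists it gave 0.10 for Idh (-0.27), of the citrate cycle, and 0.18 for RpS12 (-0.18), a cytosolic ribosomal protein. For no tested gene of the selenoprotein list was the difference between genotypes called, and Sps2 came nearest (-0.49, limma adjusted p = 0.0648).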

How the data were processed

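The deposited table holds log2 signals, 1 for each array and probe set. The authors computed them with MAS5, per the submitters' processing notes; no source used here gives the version. The log2 scale was read from the values, since the trimmed mean on the linear scale was 500.01 to 500.02 on every array. There were 18952 probe sets, 183 of them controls. The platform annotation gives 1 symbol for 13647 of the rest, several for 402 and none for 4720; 13544 were found in the RefSeq gene table, which changed 0 symbols. A probe set was tested where it reached the 40th percentile of its array on at least 3 of 12 arrays. All 12 arrays entered 1 model (limma 3.58.1, R 4.3.3, eBayes with a variance trend, 8 residual degrees of freedom), tested on simulated data. Precision is limited by 3 arrays per group.

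The 42 gene lists and the genes compared were chosen with earlier results of these data known. Of 1603 list entries 18 were not matched and 16 were left out as paralogues or wrong matches. Named were the tested genes of the selenoprotein list and of 46 set genes, whatever their level. With a level at or above 8.13, the 15 largest rises and falls, up to 4 genes a list, the 10 largest differences each way and 8 opposite changes were also named. Replicate numbers did not pair the arrays (residual r -0.02 to 0.02 between knockdown stages). Genes without a tested probe set are not analysed here, and no sequence was used.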

Additional observations from a re-analysis of the deposited data

Results flagged for a closer look

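The stage change differed between knockdown and wild type for 73 of the named genes, by the interaction of stage and genotype (limma adjusted p under 0.05). The values that follow are log2 differences, knockdown minus wild type, of the change from larva to adult. Not all of these calls held under other scalings, and those that did not are named with the processing alternatives.

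Among larval, gut and fat body genes the difference was 8.55 for LysX, 8.37 for Lsp2, 7.70 for Fbp2, 4.89 for Ser12, 4.73 for Alp7, 3.82 for Bace, 3.14 for LysP, -0.40 for Jon65Aiv, -2.56 for Jon66Ci and -3.08 for Muc12Ea. Among cuticle and chitin genes it was 4.63 for Cpr67Fa2, 4.21 for Cda9, 3.60 for Cpr49Ad, 0.76 for Cpr47Ec, -1.90 for obst-H, -2.39 for Cpr62Bb and -3.17 for Cpr65Ec. Among detoxification and antioxidant genes it was 3.94 for Cyp9b2, 3.02 for GstD2, 2.12 for Ugt37A3, 1.58 for Ugt37A2, 1.51 for GstD4, 0.66 for Sod3, -0.47 for Men, -1.03 for Cyp28d2, -1.52 for Cyp4c3, -3.07 for alpha-Est2 and -4.91 for Ugt35B1. Among immune and blood genes it was 3.35 for BomS6, 3.00 for BomBc2, 0.96 for PPO2, -0.50 for Hml, -0.53 for Col4a1, -0.91 for Drsl4 and -1.40 for He.

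Among reproductive genes the difference was 1.34 for Yp3, 0.38 for tra, -1.02 for Mst84Da, -1.32 for S-Lap7, -1.34 for Mst84Dd, -1.67 for Mst87F and -5.08 for Send2. Among eye, neuronal, muscle and odorant-binding protein genes it was 2.51 for Kal1, 1.80 for retinin, -0.47 for Snap25, -0.90 for Act88F, -1.41 for Ddc, -3.40 for Obp57b and -6.20 for Obp51a. Among hormone, growth and cell cycle genes it was 2.40 for Ilp8, 0.87 for br, 0.69 for CycB, 0.62 for Eip63E, 0.56 for E23 and 0.43 for PCNA. Among transport, protein and energy genes it was 2.55 for FASN3, 0.31 for Rpn13, -0.18 for RpS12, -0.27 for Idh, -0.38 for mRpL33, -0.39 for mRpL2, -0.47 for ScsbetaG, -0.52 for Hsc70-5, -0.56 for Picot, -0.57 for mRpL48, -0.64 for Vha100-4, -0.77 for Hsc70-1, -0.82 for Irk2, -1.16 for Vha100-5 and -1.61 for Hsp68. It was -3.26 for Jig, -3.73 for Hesr and -4.11 for mol.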

How the results depend on the processing

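The 10422 probe sets called between knockdown stages became 9990 after quantile normalization (5471 higher, 4519 lower), 10297 after median centring (5410 and 4887) and 10030 to 10495 when 1 array was left out, with 6225 to 6523 higher and 3805 to 3973 lower. The median change of 0.43 became 0.13, 0.09 and, with no filter, -0.02. In wild type median centring gave 4525 higher and 5773 lower, and leaving out 1 array gave 10142 to 10538 calls, 6636 to 6891 higher and 3454 to 3651 lower. The difference of stage changes had 2665 calls, 4669 after median centring (3953 above 0, 716 below), 2577 below 0 with dim values raised to the 40th percentile, and 1881 to 2805 without 1 array (677 to 1092 above, 1204 to 1757 below). With the replicate number as a block the counts were 10373 and 2435; the numbers did not pair the arrays.

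Of 201 named genes called between knockdown stages, 184 kept direction and call under all 21 alternatives. Signs turned for Cyp9b2 (-0.0963), Mdh1 (0.0536), RpL27 (0.0581), Secp43 (-0.13) and SelT (0.0945, not called as deposited) after quantile normalization, and for Cyp9b2 (-0.12) after median centring. Calls of Cyp9b2, DptB and Hesr were lost without 1 array. Of 73 called differences 41 held under all 20 alternatives; Idh (0.0961) and RpS12 (0.18) turned under median centring, and Cpr47Ec (-0.0918) and Ilp8 (-0.0380) with dim values raised. Median centring also ended the called differences of Act88F, Col4a1, Cyp28d2, Drsl4, Hml, Hsc70-1, Hsc70-5, Jon65Aiv, Men, Picot, ScsbetaG, Snap25, Vha100-4, mRpL2, mRpL33, mRpL48 and obst-H. Raising dim values ended those of BomBc2 (0.0355), Muc12Ea (-0.64), Cyp4c3 and obst-H, and quantile normalization those of Cyp28d2, E23, ScsbetaG, mRpL48 and obst-H. Leaving out 1 array, in most cases any of several, ended the called differences of BomS6, Col4a1, Cyp28d2, Cyp4c3, E23, Eip63E, GstD4, Jig, RpS12, Rpn13, Snap25, mRpL2, mRpL48, obst-H, retinin and tra, with adjusted p of 0.0507 to 0.105. The causes were not tested. Signal near background limits the size of large changes.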

Other observations

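Some named genes differed far more between genotypes than between stages of the knockdown. The kinase Eip63E read 10.86, 11.04 and 10.90 in knockdown adults and 10.48, 10.30 and 10.44 in knockdown larvae, against 6.0 to 6.42 on the 6 wild-type arrays. The tumour suppressor l(2)gl read 4.35 to 4.70 in knockdown adults and 5.05 to 5.63 in knockdown larvae, against 10.15 to 10.22 and 11.12 to 11.30 in wild type. whd read 11.66 to 11.86 and 10.60 to 11.21 in the knockdown and 8.0 to 8.43 and 6.54 to 7.42 in wild type, and Prx6c read 10.55 to 10.84 and 13.27 to 13.30 against 3.29 to 5.24 and 6.46 to 8.24. The carboxylesterase alpha-Est2 read 8.15 to 8.22 and 9.59 to 10.19 in the knockdown and 2.98 to 4.59 and 1.70 to 4.04 in wild type. In each of these genes no knockdown array overlapped a wild-type array of its stage. Line and knockdown cannot be told apart.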
